A study of Homo sapiens with 4 samples.

Results

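The genes that encode matrix metalloproteinases (MMPs), the secreted proteases of the ADAMTS family and the tissue inhibitors of metalloproteinases (TIMPs) were followed in lung adenocarcinoma (LAD) cells with and without constitutively active AKT1. They were taken as all protein-coding genes of GENCODE release 44 whose symbol is MMP plus a number, ADAMTS plus a number, or TIMP1 to TIMP4. This gave 45 genes, of which 22 are MMP, 19 are ADAMTS and 4 are TIMP genes, among the 60558 gene identifiers of each library. The rule uses names and no measured value, and it was set with earlier results of these data known.

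The study asked which transcripts active AKT induces in LAD cells that become more invasive. A549 and HCC827, established human LAD lines obtained from ATCC, were each transduced with myr-AKT1 or with the vector, and RNA from the 4 cultures was sequenced as 4 libraries, 1 per condition (called A549-myr-AKT1 and A549-vector in the first line, and HCC827-myr-AKT1 and HCC827-vector in the second). The myr-AKT1 protein carries a myristoylation signal, which tethers it to membranes where it is constantly active, and the vector cells are their controls. All cells were grown in DMEM with fetal bovine serum, and whether a culture was a pool or a clone of transduced cells is not given in the sources used here. Because each condition has 1 library, no difference within a line has a replicate check, and no p-value is given for it.

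MMPs are zinc-dependent proteases that cut collagens, gelatin, laminin and other matrix proteins. Most are secreted as inactive precursors, and the membrane-type MMPs stay on the cell surface. ADAMTS proteases share the zinc-dependent catalytic domain but carry thrombospondin repeats that bind matrix, and they cut proteoglycans, procollagens or single plasma proteins such as von Willebrand factor. TIMPs bind the active site of MMPs and block it, and TIMP2 also takes part in the activation of pro-MMP2 by MMP14 at the cell surface. In tumours these genes are known for the breach of basement membrane, and in lung for the remodelling of alveolar matrix. An mRNA level says nothing of how much precursor is activated.

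RefSeq promoter windows (250 bases before to 50 bases after a transcription start, GRCh38.p14) were matched for 26 of the 45 genes, in 27 windows. The 120 bases before the start are shown for the genes that were higher with myr-AKT1 in both lines and have a window, which are MMP7, MMP11, ADAMTS10 with its 2 starts and ADAMTS13, and for MMP10, which lies in the same gene cluster as MMP7 but was close to the detection limit. Each is printed 5′ to 3′ on the strand of the gene, and capitals mark a motif match on either strand.

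MMP7, chr11:102530748-102530867, minus strand: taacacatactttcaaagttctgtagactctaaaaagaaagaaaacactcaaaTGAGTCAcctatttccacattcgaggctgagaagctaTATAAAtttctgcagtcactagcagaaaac

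MMP10, chr11:102780629-102780748, minus strand: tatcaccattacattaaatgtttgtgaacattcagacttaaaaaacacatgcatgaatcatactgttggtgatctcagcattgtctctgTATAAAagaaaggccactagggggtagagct

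MMP11, chr22:23772729-23772848, plus strand: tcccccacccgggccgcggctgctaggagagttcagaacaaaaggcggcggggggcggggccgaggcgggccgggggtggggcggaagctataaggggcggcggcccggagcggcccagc

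ADAMTS10, start 1, chr19:8610716-8610835, minus strand: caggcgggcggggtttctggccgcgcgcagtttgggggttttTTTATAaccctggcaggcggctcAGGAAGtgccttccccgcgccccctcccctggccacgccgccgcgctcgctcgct

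ADAMTS10, start 2, chr19:8592217-8592336, minus strand: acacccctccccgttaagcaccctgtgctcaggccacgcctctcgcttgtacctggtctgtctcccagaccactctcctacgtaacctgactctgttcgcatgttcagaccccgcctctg

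ADAMTS13, chr9:133422247-133422366, plus strand: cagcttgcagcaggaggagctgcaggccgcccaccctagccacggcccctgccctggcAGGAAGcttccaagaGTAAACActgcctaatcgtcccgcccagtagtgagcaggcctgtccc

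MMP7 held an AP-1 element (TGAGTCA) at bases -67 to -61 from the start and a TATA box (TATAAA) at -30 to -25, and its window held PEA3 elements (AGGAAG) at -169 to -164 and -145 to -140, before the printed bases and on the opposite strand. MMP10 held a TATA box at -31 to -26 and no AP-1 element. ADAMTS13 held a PEA3 element at -62 to -57 and a FOXO element (GTAAACA) at -47 to -41. The first start of ADAMTS10 had a PEA3 element at -55 to -50, another at 7 to 12 past the start on the opposite strand, and the letters of a TATA box on the opposite strand, and neither its second start nor MMP11 had a match in the printed bases. Over all 27 windows of these genes, 1 held the AP-1 element against 4.95% of the 35116 RefSeq promoter windows, 6 held PEA3 against 33.6%, 2 held FOXO against 3.42% and 7 held a TATA box against 11.5%. The STAT element (TTCNNNGAA) was in 0 of the 27 windows and in 7.66% of all windows. Both strands were searched, none of the matches in these windows overlapped another, and a match is a string of letters and not a measured binding site.

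The deposited value of a gene is its read count after division by a factor for the library, and is called a normalized count here. The recovered reads summed to between 16322183 (HCC827-myr-AKT1) and 33530317 (A549-vector) per library. A log2 fold change (log2FC) is the log2 of myr-AKT1 over vector within a line, and paired values are given throughout as myr-AKT1 against vector. The interval given with it is a 95% Clopper-Pearson interval from the reads, which covers counting error only and not the spread between cultures. A gene counts as measured in a line when the mean normalized count of the pair was at least 10, and as higher or lower when its log2FC was also past 1 or -1. In the text, levels of different genes are compared as RPKM, which scales the recovered reads by exon length and by the library total.

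The labels were checked first. AKT1 transcripts were higher in both myr-AKT1 libraries, with a log2FC of 0.57 in A549 and 1.14 in HCC827. All 5 epithelial markers had reads in all libraries, and their summed RPKM was lower with myr-AKT1, at 1164 against 1391 in A549 and 1051 against 1895 in HCC827. In A549, KRT8 and KRT18 were below vector (log2FC -0.36 and -0.38), while KRT19 (2.65), CDH1 (1.39) and EPCAM (0.59) were above it. In HCC827, KRT8 (-1.81), KRT18 (-1.75), KRT19 (-0.75) and EPCAM (-0.22) were below vector and CDH1 (0.31) was above it. The summed RPKM of 6 fibroblast markers was 9.57 in A549-myr-AKT1 against 1.54 in A549-vector and 1.01 in HCC827-myr-AKT1 against 0.276 in HCC827-vector. Of these, COL1A1, a chain of type I collagen, was higher in both lines, with 668 against 88 reads in A549 (log2FC 3.32) and 142 against 56 in HCC827 (log2FC 2.01). LUM (log2FC 3.94) and THY1 (log2FC 1.10) were also higher in A549, while COL1A2, the other chain of type I collagen, was at 0 reads in all libraries. In A549, DCN had 13 against 0 reads and PDGFRB 4 against 6. The HCC827 sum was mostly COL1A1, at 0.966 against 0.228 RPKM. There DCN had 3 against 5 reads, PDGFRB 1 against 4, LUM 1 against 1 and THY1 0 against 0. Summed RPKM of 4 endothelial markers was 0.702 against 0.0626 in A549 and 1.36 against 0.493 in HCC827, and that of 4 immune markers 0.367 against 0.0295 and 0.386 against 0.333, with CD3E at 0 reads in all libraries. The fibroblast, endothelial and immune sums were thus higher with myr-AKT1 in both lines. The epithelial sum was lower in both, but single epithelial markers went both ways. The part of these markers in the results on the protease genes was not tested. In bulk RNA, fewer cells that express a gene and less RNA per cell cannot be told apart.

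Of the 45 genes, 24 were measured in A549 and 19 in HCC827. In A549 cells 12 of the 24 were higher with myr-AKT1 and 1 was lower, where 15.1% of all 18750 genes measured in A549 were higher and 9.87% were lower. Among the 19 in HCC827, 10 were higher with myr-AKT1 and 5 lower, where 14.1% of all 17358 measured genes were higher and 12.5% were lower. Among protein-coding genes alone the shares were 14.2% higher and 8.25% lower in A549, and 12.9% higher and 10.4% lower in HCC827. The median log2FC of the measured genes was 1.07 in A549 and 1.10 in HCC827, beside -0.03 and -0.04 over all measured genes. All 13 genes past the threshold in A549 and all 15 in HCC827 had a counting interval that excluded 0. Most genes called by this rule did. Over all genes, 2823 were higher and 1851 lower in A549, and 4484 of these had such an interval. In HCC827, 2451 were higher and 2173 lower, and 4401 of these had one. Measured in both lines were 17 genes, in A549 but not HCC827 7, in HCC827 but not A549 2, and in neither 19.

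**Figure D1:**
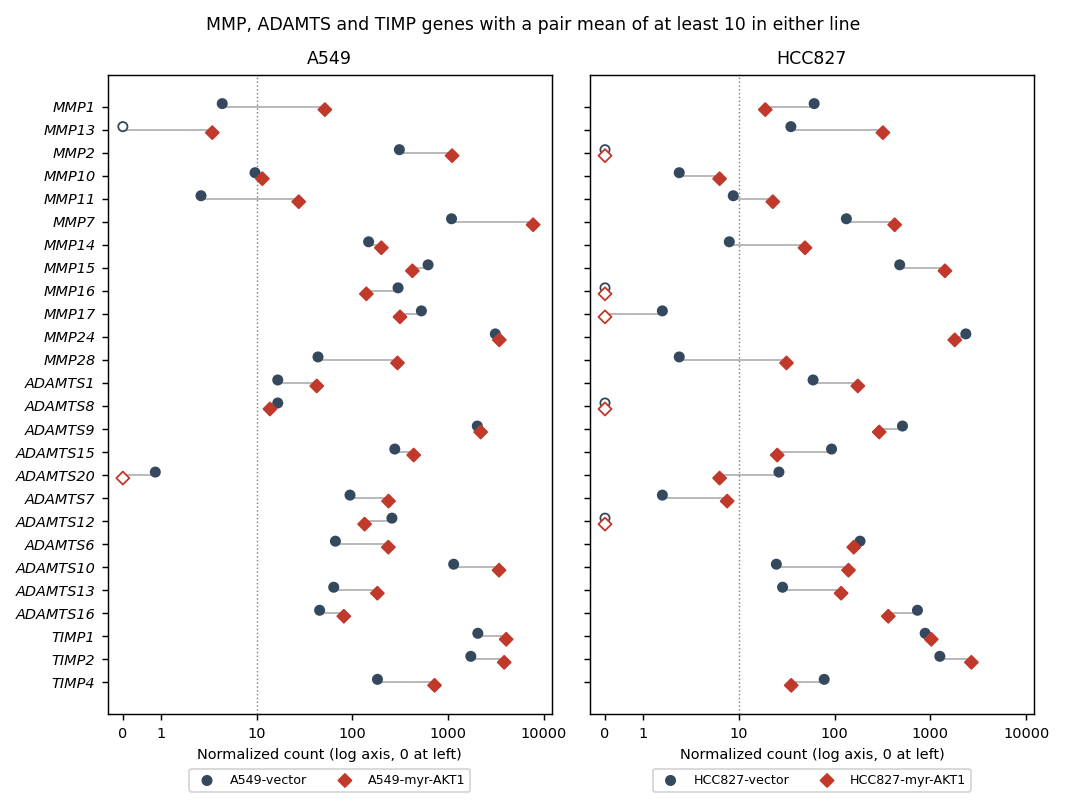
Normalized count (log axis, values of 0 drawn as open symbols at the left) of the 26 genes with a pair mean of at least 10 in either line, in the vector library (circles) and the myr-AKT1 library (diamonds) of A549 and HCC827. The dotted line marks a normalized count of 10, and MMP7 in A549 is at 7710.2 against 1084.

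Both lines had 7 genes higher with myr-AKT1, which were MMP7, MMP11, MMP28, ADAMTS1, ADAMTS10, ADAMTS13 and TIMP2. They are 7 of the 17 genes measured in both lines, where 4.6% of all 15704 genes measured in both were higher in both. None of the 17 was lower in both lines, where 4.09% of all genes were.

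MMP7 (ENSG00000137673, matrilysin, chromosome 11, 102520508 to 102530750, minus strand) is a small secreted MMP without the hemopexin domain, made by epithelial cells and able to cut cell-surface proteins as well as matrix. It had 7710.2 against 1084 normalized counts in A549 and 424 against 133 in HCC827. Both myr-AKT1 libraries were thus above their vector library, by 7.12-fold in A549 (log2FC 2.83, interval 2.74 to 2.92) and 3.19-fold in HCC827 (log2FC 1.68, 1.40 to 1.95). MMP7 was the most abundant MMP transcript of A549-myr-AKT1, with 115 RPKM or 70.7% of the summed MMP RPKM, while MMP24 was the most abundant in the other libraries.

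MMP28 (ENSG00000271447, epilysin, chromosome 17, 35756249 to 35795707, minus strand) is a secreted MMP of epithelia. Its normalized counts were 295 against 43.7 in A549 and 31.5 against 2.38 in HCC827, the last from 3 reads. The log2FC was 2.76 (2.32 to 3.23) in A549 and 3.72 (2.01 to 6.09) in HCC827. The ratio in HCC827 was thus the less precise of the pair.

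MMP11 (ENSG00000099953, stromelysin-3, chromosome 22, 23768226 to 23784316, plus strand) is activated inside the cell by furin and cuts serine protease inhibitors better than matrix. It had few reads, 24 against 3 in A549 and 18 against 11 in HCC827. In normalized counts these were 27.5 against 2.62 and 22.6 against 8.74. The log2FC was 3.39 (1.67 to 5.77) in A549 and 1.37 (0.21 to 2.60) in HCC827.

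ADAMTS10 (ENSG00000142303, chromosome 19, 8580240 to 8610735, minus strand) acts on fibrillin microfibrils. It had 3395 against 1141 normalized counts in A549 and 140 against 24.6 in HCC827. The log2FC was 1.57 (1.48 to 1.67) in A549 and 2.50 (1.92 to 3.13) in HCC827, and in A549 ADAMTS10 was the most abundant ADAMTS transcript per length, at 20.6 RPKM with myr-AKT1 and 6.83 RPKM with vector.

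ADAMTS13 (ENSG00000160323, chromosome 9, 133414358 to 133459402, plus strand) is the plasma protease of von Willebrand factor. Its normalized counts were 182 against 63.7 in A549 and 117 against 28.6 in HCC827. The log2FC was 1.51 (1.11 to 1.93) in A549 and 2.03 (1.46 to 2.63) in HCC827. Part of ADAMTS13 lies under REXO4 on the opposite strand, a gene with 816 to 1496 reads per library, and whether the counting used strand is not given in the sources used here.

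ADAMTS1 (ENSG00000154734, chromosome 21, 26835755 to 26845409, minus strand) cuts the proteoglycans versican and aggrecan. It had 42.4 against 16.6 normalized counts in A549 and 175 against 59.6 in HCC827. The log2FC was 1.35 (0.52 to 2.23) in A549 and 1.55 (1.14 to 1.98) in HCC827. Its level per length was 0.201 against 0.0776 RPKM in A549 and 1.17 against 0.376 RPKM in HCC827.

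**Figure D2:**
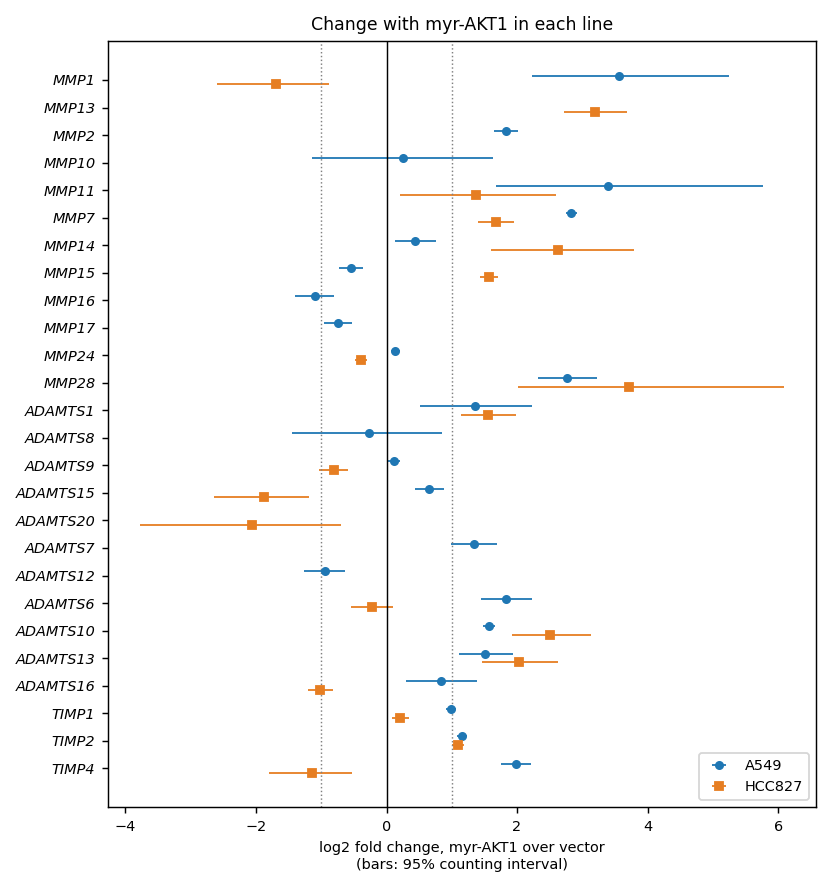
Log2 fold change of myr-AKT1 over vector in A549 (circles) and HCC827 (squares) with 95% counting intervals (bars), for genes with a pair mean of at least 10 in that line, and dotted lines at 1 and -1. MMP7, MMP11, MMP28, ADAMTS1, ADAMTS10, ADAMTS13 and TIMP2 lie above 1 in both lines, while MMP1 has 3.56 in A549 and -1.70 in HCC827.

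Collagenases cut fibrillar collagen. MMP1, interstitial collagenase, had 51.5 against 4.37 normalized counts in A549 (45 and 5 reads), and 18.9 against 61.2 in HCC827 (15 and 77 reads). It was higher with myr-AKT1 in A549 (log2FC 3.56, 2.23 to 5.25) and lower in HCC827 (log2FC -1.70, -2.60 to -0.89). MMP13, collagenase-3, had 320 against 35.0 normalized counts in HCC827, a 9.14-fold ratio (log2FC 3.19, 2.73 to 3.69). In A549 it had 3 reads with myr-AKT1 and 0 with vector, so no fold is given. MMP8, the collagenase of neutrophils, had 0 reads in all libraries.

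The gelatinases MMP2 and MMP9 cut denatured collagen and the type IV collagen of basement membrane. MMP2 had 1098 against 309 normalized counts in A549 (log2FC 1.83, 1.65 to 2.01) and 0 reads in both HCC827 libraries. A count of 0 allows up to 3 reads, which is a normalized count of 3.77 in the myr-AKT1 library of HCC827 and of 2.38 in its vector library. MMP9 was under the minimum in both lines, with 3 against 2 reads in A549 and 0 against 5 in HCC827. A difference in MMP9 was not detectable at this depth.

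Of the stromelysins, which cut proteoglycans and other MMP precursors, MMP10 had 11 reads or fewer in every library and was measured in A549 (log2FC 0.25, -1.14 to 1.63), where the interval includes 0. MMP3 had 4 reads in A549-myr-AKT1 and 0 in the other libraries. MMP12, the macrophage elastase, had 0 reads in all libraries.

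The membrane-type MMPs carry a transmembrane segment or a lipid anchor. MMP14 (MT1-MMP), the cell-surface activator of MMP2, had 200.4 against 148 normalized counts in A549 and 49.1 against 7.95 in HCC827. It was above vector in both lines, by a log2FC of 0.44 (0.13 to 0.75) in A549, under the threshold, and by 2.63 (1.60 to 3.79) in HCC827, where the vector library had 10 reads. MMP15 (MT2-MMP) had 423 against 617 normalized counts in A549 and 1421 against 478 in HCC827. Its log2FC was -0.55 (-0.73 to -0.36) in A549 and 1.57 (1.43 to 1.72) in HCC827.

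MMP16 (MT3-MMP) was the sole gene of the 24 that was lower in A549, with 140 against 299.5 normalized counts (log2FC -1.10, -1.41 to -0.80), and it had 0 reads in HCC827. With size factors taken over all 4 libraries, MMP16 no longer passed the threshold. MMP17 (MT4-MMP), a lipid-anchored member, had 314 against 525 normalized counts in A549 (log2FC -0.74), under the threshold, and 0 and 2 reads in HCC827. MMP24 (MT5-MMP), known from the nervous system, was the most abundant membrane-type MMP transcript in all libraries, with 27.1 against 24.2 RPKM in A549 and 20.0 against 24.7 in HCC827. MMP24 lies within MMP24OS on the opposite strand, which had 180 to 669 reads, so reads of the pair may be split. In A549, 0 of the 5 measured membrane-type genes were higher and 1 was lower, and in HCC827, 2 of 3 were higher and 0 lower.

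The remaining MMP genes (MMP19, MMP20, MMP21, MMP25, MMP26 and MMP27) had at most 6 reads in any library. They include the tooth enamel protease MMP20 and the second matrilysin, MMP26.

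A cluster of 9 of these MMP genes spans 435 kb of chromosome 11 (102520508 to 102955732), all on the minus strand. In the order of the chromosome they are MMP7, MMP20, MMP27, MMP8, MMP10, MMP1, MMP3, MMP12 and MMP13. Of the 9, 3 were measured in A549 (MMP7, MMP10, MMP1) and 3 in HCC827 (MMP7, MMP1, MMP13), and MMP27, MMP8 and MMP12 had 0 reads in all libraries. MMP7 and MMP13, at the opposite ends, were both higher with myr-AKT1 in HCC827, while MMP1 between them was lower. Among the 36 genes outside the cluster, 10 of 21 measured genes were higher in A549 and 8 of 16 in HCC827.

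**Figure D3:**
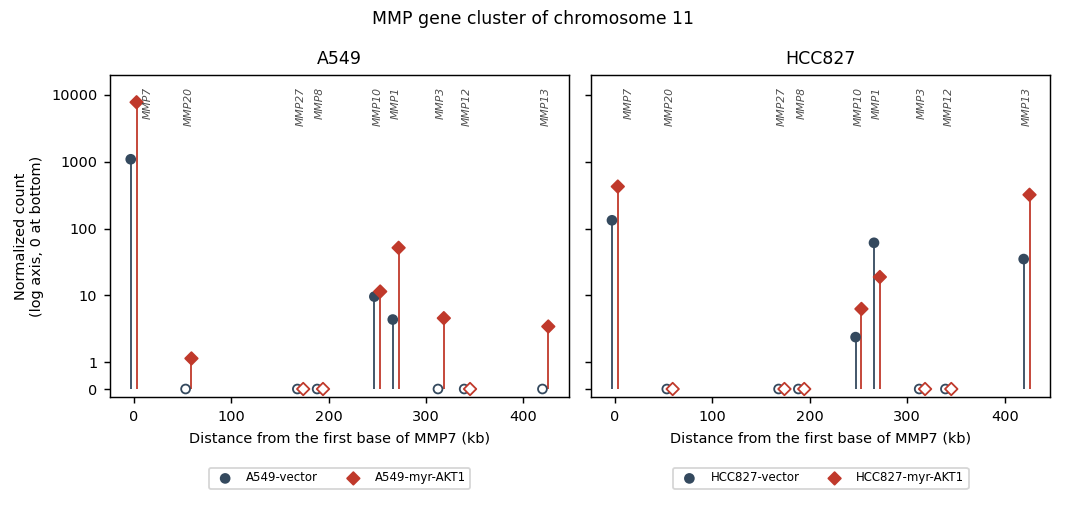
Normalized count (log axis, 0 as open symbols at the bottom) of the 9 MMP genes of the chromosome 11 cluster against distance from the first base of MMP7 in kb, in the vector (circles) and myr-AKT1 (diamonds) libraries of A549 and HCC827. MMP7 has reads in all libraries, and in HCC827 MMP13 is at 320 against 35.0.

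Among the ADAMTS proteases of proteoglycans, 4 of 7 were measured in each line, with 1 higher in both (ADAMTS1) and, in HCC827, 2 lower. ADAMTS15 had 436 against 277 normalized counts in A549 and 25.2 against 93.0 in HCC827. Its log2FC was 0.66 (0.44 to 0.88) in A549, under the threshold, and -1.89 (-2.65 to -1.19) in HCC827. ADAMTS20 was measured in HCC827 alone, with 5 reads with myr-AKT1 and 33 with vector (log2FC -2.06, -3.77 to -0.69), and had 0 and 1 reads in A549. ADAMTS9, which was the second most abundant ADAMTS transcript per length in all libraries, at 7.09 against 6.44 RPKM in A549 and 1.33 against 2.21 in HCC827, was not past the threshold in either line. ADAMTS8, a member with antiangiogenic activity, had 12 against 19 reads in A549 (log2FC -0.27, -1.45 to 0.85), where the interval includes 0, and 0 reads in HCC827. The aggrecanases ADAMTS4 and ADAMTS5, known from cartilage, had at most 2 reads in any library.

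ADAMTS7 and ADAMTS12 cut cartilage oligomeric matrix protein. ADAMTS7 had 238 against 94.3 normalized counts in A549 (log2FC 1.34, 0.99 to 1.69), and 6 and 2 reads in HCC827, under the minimum. It overlaps MORF4L1 on the opposite strand, which had 3434 to 8136 reads, and ADAMTS7 pseudogenes had at most 6 reads. ADAMTS12 had 134 against 258 normalized counts in A549 (log2FC -0.95, -1.27 to -0.63), just inside the threshold, and 0 reads in HCC827.

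ADAMTS6, the closest relative of ADAMTS10, had 237 against 66.4 normalized counts in A549 and 159 against 184 in HCC827. It was higher in A549 (log2FC 1.84, 1.45 to 2.24), and in HCC827 its log2FC of -0.22 had an interval of -0.54 to 0.10 that includes 0. ADAMTS16 was the most abundant ADAMTS transcript of HCC827 per length, at 3.02 RPKM with myr-AKT1 and 5.76 with vector. Its normalized counts were 364 and 734 in HCC827 (log2FC -1.01, -1.21 to -0.82) and 81.3 and 45.4 in A549 (log2FC 0.84, 0.30 to 1.39). The lower call in HCC827 sits at the threshold, and scaling by total reads gave -0.93. The procollagen N-propeptidases ADAMTS2, ADAMTS3 and ADAMTS14, which trim fibrillar procollagens, were under the minimum in both lines with at most 12 reads, as were ADAMTS17 and ADAMTS18, and ADAMTS19 had 0 reads in all libraries.

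TIMP1 was the most abundant inhibitor transcript per length in all libraries. TIMP1 (ENSG00000102265, chromosome X, 47582408 to 47586789, plus strand) had 4033 against 2039 normalized counts in A549 and 1023 against 883 in HCC827. Its log2FC was 0.98 (0.91 to 1.06) in A549, just under the threshold, and 0.21 (0.08 to 0.34) in HCC827. With TMM scaling the A549 value was 1.01. TIMP2 (ENSG00000035862, chromosome 17, 78852977 to 78925387, minus strand) had 3845 against 1724 normalized counts in A549 and 2685 against 1256 in HCC827. It was higher with myr-AKT1 in both lines with intervals that overlap, by 2.23-fold in A549 (log2FC 1.16, 1.08 to 1.24) and 2.14-fold in HCC827 (log2FC 1.10, 1.001 to 1.19).

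TIMP3, the inhibitor that binds to matrix and also blocks ADAMTS proteases, was under the minimum in A549 with 15 reads with myr-AKT1 and 2 with vector (log2FC 3.30, 1.19 to 6.47), and had 0 reads in HCC827. TIMP4 had 720 against 183 normalized counts in A549 (log2FC 1.98, 1.75 to 2.21), and 35.2 against 77.9 in HCC827 (log2FC -1.14, -1.81 to -0.53). It was thus higher in A549 and lower in HCC827. TIMP1, TIMP3 and TIMP4 each lie within a synapsin gene on the opposite strand, and those synapsin genes had at most 19 reads in any library.

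Levels were then summed per length over each family. The summed RPKM of the MMP genes was 163 against 54.7 in A549 and 52.5 against 34.6 in HCC827. That of the TIMP genes was 139, 62.9, 56.9 and 40.5 in the same order, of which TIMP1 gave between 60.5% and 76.6%. The ratio of the MMP to the TIMP sum was 1.17, 0.869, 0.922 and 0.854. Without MMP7 this ratio was 0.343 against 0.616 in A549 and 0.766 against 0.789 in HCC827, so the order of the libraries turned in both lines. The ADAMTS sum was 34.7 against 17.4 in A549 and 8.92 against 10.7 in HCC827. With 1 library per condition these sums have no error between cultures.

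**Figure D4:**
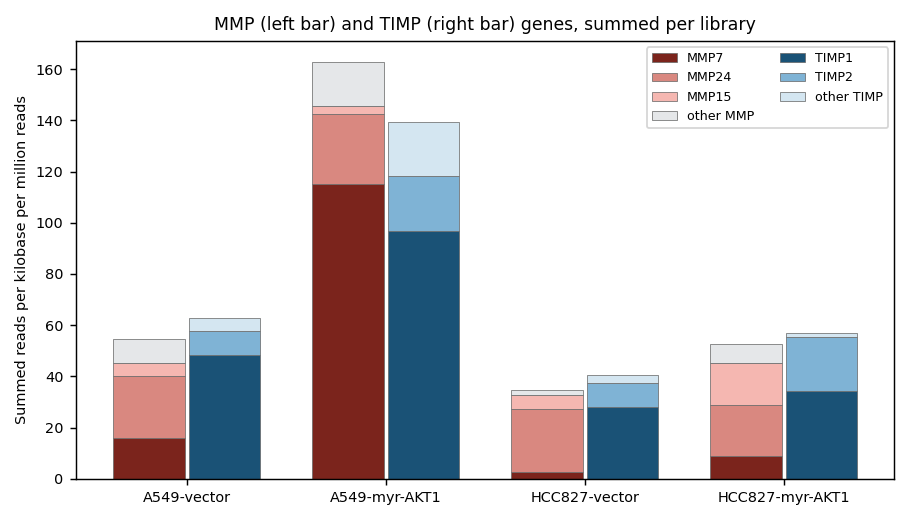
Summed RPKM of the MMP genes (left bar, split into MMP7, MMP24, MMP15 and the rest) and of the TIMP genes (right bar, split into TIMP1, TIMP2 and the rest) in each library. The MMP bar of A549-myr-AKT1 reaches 163, of which MMP7 makes up 115.

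Across both lines the contrast was tested with limma, on normalized counts to which 1 was added before taking log2, and with the cell line as a blocking term. This fit covered 19314 genes, 24 of them of these families, used the lines as the replicates and left 1 residual degree of freedom. The variance of each gene was moderated towards a trend with mean level over all genes fitted. The SEs and p-values therefore rest on that shared variance and not on the replicate lines alone. At an adjusted p of 0.05 by limma with Benjamini-Hochberg adjustment over all genes, 3 of the 24 rose and 0 fell, where 1.29% of all genes rose and 1.73% fell. MMP7 rose by 2.25 on the log2 scale (SE 0.346, adjusted p = 0.0227), ADAMTS10 by 2.01 (SE 0.379, adjusted p = 0.0366) and MMP28 by 2.996 (SE 0.626, adjusted p = 0.0499), each higher in both lines. TIMP2 had 1.13 (SE 0.243, adjusted p = 0.055) and MMP13 had 2.65 (SE 0.688, adjusted p = 0.0923) and did not pass. The value of MMP13 averages in the A549 pair of 3 and 0 reads and so depends on the pseudocount, with 4.17 at a pseudocount of 0.1 and 3.51 by DESeq2 (adjusted p = 0.0254), where it passed, and its adjusted p ranged from 0.0238 to 1 over the alternatives. At an unadjusted p under 0.05 there were 9 genes on the higher side and 0 on the lower side, where 18.4% of all genes tested were under that p in either direction. MMP28 sits at the threshold and had an adjusted p of 0.0558 by edgeR's quasi-likelihood test with TMM, and its adjusted p ranged from 0.000363 to 1 over the alternatives. With edgeR and DESeq2's size factors, with a pseudocount of 0.1 or without the block, 0 of the 24 passed.

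Genes that activate, regulate or are cut by these proteases were read from lists chosen by function, to be set beside the shares of all genes given above. Of 10 activators (plasminogen activators, proprotein convertases and membrane serine proteases), 7 were measured in A549 with 4 higher and 0 lower (median log2FC 1.18), and 8 in HCC827 with 1 higher and 2 lower (median 0.23). FURIN, the convertase that activates MMP11 and the membrane-type MMPs, had a log2FC of 1.18 (1.07 to 1.29) in A549 and 0.75 (0.64 to 0.86) in HCC827. Urokinase (PLAU), which generates plasmin, had 3190 against 1715 normalized counts in A549 (log2FC 0.90) and 5583 against 12077 in HCC827 (log2FC -1.11). Its receptor PLAUR had a log2FC of 1.84 in A549 and -0.27 in HCC827.

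Of 12 regulators, 11 were measured in A549 with 3 higher and 0 lower (median log2FC 0.41), and 9 in HCC827 with 3 higher and 1 lower (median 0.28). LRP1, the endocytic receptor that clears MMPs, ADAMTS proteases and their complexes with TIMPs, was higher in both lines, with 7010.5 against 1448 normalized counts in A549 (log2FC 2.28, 2.20 to 2.35) and 3667 against 478 in HCC827 (log2FC 2.94, 2.81 to 3.07). LCN2, lipocalin-2, which binds MMP9, had 98129 against 8948 normalized counts in HCC827 (log2FC 3.46) and a log2FC of 0.04 in A549. RECK, a membrane inhibitor of MMPs, had log2FCs of 0.41 and 0.28, and BSG (basigin, an inducer of MMPs) had -0.56 and 0.06, under the threshold in both lines.

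Of 9 ADAM proteases, the membrane-bound relatives of the ADAMTS family, 3 of 8 measured were higher in A549 (median log2FC 0.50) and 0 of 7 in HCC827 (median 0.34), and 0 were lower in either. Of 6 ADAMTS-like genes, which lack the protease domain, 2 of 4 were higher in A549 (median log2FC 0.96) and 0 of 2 in HCC827 (median 0.48), and again 0 were lower. Of 6 substrates, 2 were measured in each line. The basement membrane proteoglycan HSPG2 (perlecan) was higher in both, with log2FCs of 1.20 (1.12 to 1.29) and 2.06 (1.92 to 2.21), and versican (VCAN), a substrate of ADAMTS1, had 0.41 in A549 and -1.75 in HCC827. Of 11 transcription factors known to bind AP-1, PEA3 or RUNX elements of MMP promoters, 3 of 10 were higher and 1 lower in A549 (median log2FC 0.47), and 3 of 11 were higher and 1 lower in HCC827 (median 0.63). FOSL1, an AP-1 subunit, was the gene lower in both lines, with 106 against 277 normalized counts in A549 (log2FC -1.38, -1.73 to -1.04) and 160 against 1296 in HCC827 (log2FC -3.02, -3.29 to -2.76).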

How the data were processed

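RNA of 4 cultures was sequenced on a NovaSeq as strand-specific libraries. Per the methods, polyadenylated RNA was selected, and per the labels, ribosomal RNA was depleted. The authors trimmed and masked the reads, mapped them to hg38 with Bowtie2 and counted genes with HTSeq, and the annotation is not given in the sources used here. The methods name RPKM, but the deposited signal values are read counts divided by 1 size factor per library (for myr-AKT1 and vector, 0.873 and 1.15 in A549 and 0.795 and 1.26 in HCC827), estimated within each line. Whole reads (within 0.001) were recovered for 100% of genes with reads in both myr-AKT1 libraries, 99.9963% in A549-vector and 99.9961% in HCC827-vector, where 1 gene each was not whole.

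Genes were named from GENCODE 44, where 60261 of 60558 identifiers matched. Log2 fold changes have no pseudocount. The members and lists were chosen with earlier results of these data known. Named in the text are members past a log2 fold change of 1 or -1 at a pair mean of at least 10 in either line, all TIMPs, MMP2, MMP9 and MMP14, 8 fixed related genes (1 is not reported here) and list genes past the threshold in both lines in the same direction at a pair mean of at least 50. MMP24, ADAMTS9 and other members outside this rule that are given with values were chosen after their values were seen.

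A fit of edgeR was planned for counts. Because the values are normalized, limma on log2(value + 1) was used over genes kept by filterByExpr, and edgeR was run on the recovered reads, where it called 196 genes higher and 228 lower. DESeq2 called 621 and 518, with 5243 adjusted p-values not given. The limma, edgeR and DESeq2 fits and the calls within a line with their counting intervals were tested on simulated data. The counts simulated for the calls held counting error only. Those for the fits had 1 fixed spread for all genes and the same changes in both lines. Neither can show how the results hold against the real spread between cultures or lines. The tools were edgeR 4.0.16, limma 3.58.1 and DESeq2 1.42.0 in R 4.3.3, and pandas 2.3.3, scipy 1.17.1, matplotlib 3.10.9 and numpy 2.4.6 in Python 3.11.15.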

Additional observations from a re-analysis of the deposited data

Results flagged for a closer look

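In 7 of the 17 genes measured in both lines, the A549 and HCC827 values lay on opposite sides of 0 and both counting intervals excluded 0, where 14.7% of all 15704 genes measured in both lines did so. On the log2 scale MMP1 was at 3.56 in A549 and at -1.70 in HCC827. TIMP4 had 1.98 and -1.14, ADAMTS15 had 0.66 and -1.89, and ADAMTS16 had 0.84 and -1.01. MMP15 was the gene of the 7 that was below vector in A549 and above it in HCC827, with -0.55 and 1.57. MMP24 had 0.14 and -0.39, and ADAMTS9 had 0.12 and -0.81. With 1 library per condition, none of these differences was tested.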

How the results depend on the processing

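The libraries were paired by cell line in the limma fit. No paired analysis by replicate number was possible because each group has 1 library and the labels carry no such numbers, and for the same reason no library could be left out. Over 43 log2 fold changes of members, none changed sign with TMM, total reads, size factors over all 4 libraries or a pseudocount of 1, and 6 left their counting interval, all in A549 with size factors over all 4 libraries, which shifted all A549 genes by 0.102. A pseudocount of 1 cannot turn a sign. Each other scaling moves all genes of a line together, by at most 0.102 in A549 and 0.080 in HCC827. The unchanged signs are therefore no check of single genes. Members lower in A549 (1 as reported) numbered 0 with size factors over all 4 libraries (8.43% of all genes), 4 with the sole requirement of 1 read in both libraries (12.4%) and 0 at a threshold of 2 (2.81%). Members higher at a threshold of 2 numbered 4 in A549 (5.79% of all genes) and 5 in HCC827 (4.63%). Members lower in HCC827 (5 as reported) numbered 3 at a pair mean of at least 50 (10.3%) and 1 at a threshold of 2 (3.09%). TIMP1 passed the threshold in A549 with TMM (1.01), total reads (1.01) and size factors over all 4 libraries (1.09), and ADAMTS16 lost its call in HCC827 with total reads (-0.93) and size factors over all 4 libraries (-0.96). In the limma fit blocked by line, members that rose (3 as reported) numbered 2 by edgeR with TMM (1.01% of all genes), 0 by edgeR with DESeq2's size factors (0.217%), 5 by DESeq2 (3.22%), 0 with a pseudocount of 0.1, 6 with all genes of at least 1 read (41 members tested, 3.33% of all genes) and 0 without the block, and 0 fell in every one of these. The causes were not tested. Genes called over the whole table numbered 42 higher and 57 lower by edgeR with DESeq2's size factors, 1101 and 894 with genes of at least 1 read, and 0 and 0 with a pseudocount of 0.1 or no block. Low reads limit, among others, MMP11, MMP28 in HCC827, TIMP3 and ADAMTS20. They also limit MMP1 in A549 (5 reads with vector) and MMP14 in HCC827 (10 reads with vector).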

Other observations

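MMP23B, an MMP gene whose symbol ends in a letter and is therefore outside the naming rule, had 4 reads in A549-vector and 0 in the other libraries. A lncRNA on the opposite strand of MMP16, ENSG00000253553, had 1310 reads with myr-AKT1 and 2315 with vector in HCC827, while MMP16 itself had 0 reads in both, and in A549, where MMP16 had 122 and 343 reads, the lncRNA had 3 and 0. These values were singled out after they were seen.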
